A study of Capra hircus with 36 samples.

Results

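The miR-34 and miR-449 family was read from small RNA libraries of goat lung, liver, spleen, kidney, heart and muscle as the rows of the count table named miR-34a, miR-34b, miR-34c, miR-449a, miR-449b or miR-449c, either arm, with rows marked as conserved between mammals included and rows of unannotated miRNAs skipped. The rule found 11 of the 1391 mature miRNAs in the table, 6 named 5p and 5 named 3p. miR-34 and miR-449 miRNAs share a seed and so can recognise similar target sites. miR-34b and miR-34c are made from a shared primary transcript, miR-34a has a locus of its own and is a classical target of p53, and miR-34b/c and miR-449 are known for their abundance in multiciliated cells, such as those lining the airways, where they promote the formation of motile cilia.

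The animals were adult females over 3 years old, 3 from the Tibetan Goat population living at 3000 m and 3 low-altitude goats living at 600 m, and all 6 tissues, with longissimus as the muscle, were taken from each goat. This gave 36 libraries in 12 groups of tissue and altitude, with 3 goats in each group. Each altitude holds a population of its own, so altitude and population cannot be told apart. Summed miRNA counts per library ran from 7108635 to 14407748, with a median of 10419740, and levels are given as RPM, reads per 1000000 of that sum. At these depths a count of 0 allows up to 3 counts, or 0.208 to 0.422 RPM depending on the library, which covers counting error only.

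In the RefSeq annotation of assembly ARS1.2, used here for names and neighbours only, MIR34C and MIR34B stood side by side inside C15H11orf88, next to BTG4. MIR449C, MIR449B and MIR449A followed each other inside CDC20B, and the gene before MIR449C was MCIDAS, a regulator of multiciliated cell differentiation. MIR34A lay inside no other listed gene, with GPR157 as the gene after it.

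Tissue labels were checked against marker miRNAs. The hepatocyte miRNA miR-122-5p stood at 6118 to 179917 RPM in the liver libraries, highest in high-altitude goat 3, and at no more than 207.9 RPM in any other library, and the cardiac and slow-muscle miRNA miR-208b-3p averaged 13405 RPM in heart, 1724 RPM in muscle and at most 41.5 RPM elsewhere. The lymphocyte miRNA miR-150-5p averaged 3895 RPM in spleen and at most 779.4 RPM elsewhere, and miR-196b-5p averaged 415.1 RPM in kidney, 220.9 RPM in muscle and at most 13.8 RPM elsewhere. Other kidney markers did not single out kidney. miR-196a-5p averaged 149.3 RPM in kidney and 265.1 RPM in muscle. miR-204-5p averaged 804.7 RPM in kidney and 641.2 RPM in liver, with overlap. Over 308 miRNAs with a mean of at least 10 RPM, 35 of 36 libraries correlated best with a library of their own tissue. The exception was the spleen library of high-altitude goat 1, with r of 0.827 to a lung library and 0.825 to its nearest spleen library. Leaving that goat out moved the spleen altitude value of miR-34c-5p given later from 2.06 to 2.08 on the log2 scale.

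The tie of the family to ciliated cells is background here, because the table holds miRNAs alone and no protein-coding marker of cilia. An epithelial list could be read instead. Of its 11 members, 10 rose in lung against the other 5 tissues, against 8.91% of all miRNAs, and 0 fell, against 3.52%, with a median log2 fold change of 3.81, against -0.39 over all 1391 miRNAs. That median is the value of miR-200b-3p, 3.81 ± 1.255 (SE, adjusted p = 0.0342), which was listed at 0 in 2 lung and 4 kidney libraries beside high values in the others. Without it 9 of 10 members rose, with a median of 3.84. The most abundant member of the list in lung, miR-141-3p, averaged 6533 RPM there and 843.0 RPM in kidney. A rise against the mean of 5 tissues does not make lung the highest tissue: miR-200a-3p averaged 1498 RPM in kidney and 466.9 RPM in lung, miR-200b-3p 986.5 and 774.2 RPM, and miR-429-3p 215.8 and 152.0 RPM, and in liver miR-203-3p averaged 159.7 RPM, against 74.8 RPM in lung, and miR-96-5p 13.2 RPM, against 11.1 RPM. miR-375-3p, a marker of secretory and endocrine epithelium, was the member not called and was listed at 0 in every lung library. It was also at 0 in every liver, spleen, kidney and muscle library and reached 7.65 RPM in heart, so its zeros set no tissue apart. miR-200c-3p averaged 428.6 RPM in lung and at most 59.1 RPM elsewhere. Kidney, where miR-141-3p and miR-200a-3p were among the epithelial miRNAs read at high levels and miR-375-3p was at 0, had a mean of 13.3 RPM of miR-34c-5p, against 5608 RPM in lung. All libraries come from whole tissue, so fewer cells of a type and less RNA per cell cannot be told apart.

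In lung, chi-miR-34c-5p, here miR-34c-5p, was the leading member. It stood at 4693, 10181 and 2729 RPM in high-altitude goats 1, 2 and 3 and at 7834, 1914 and 6297 RPM in low-altitude goats 1, 2 and 3. The altitudes overlapped, with the highest value in high-altitude goat 2 and the lowest in low-altitude goat 2. This miRNA made up 58.0% to 82.7% of all family counts in a lung library, and the whole family made up 0.330% to 1.34% of all miRNA counts there. The 3p arm of the same hairpin, miR-34c-3p, was far lower, at 10.9 to 96.8 RPM.

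miR-34b, the partner of miR-34c on the shared transcript, was read from both arms in lung, with a 5p to 3p ratio of counts from 0.666 to 3.39. The 5p arm stood at 200.9, 376.0 and 145.1 RPM at high altitude and at 470.9, 171.5 and 470.1 RPM at low altitude. The 3p arm stood at 301.6, 459.5 and 42.7 RPM at high altitude and at 316.4, 191.6 and 264.0 RPM at low altitude. For both arms the altitude groups overlapped. High-altitude goat 3 had the lowest lung value of the 6 for miR-34b-3p and, at 10.9 RPM, for miR-34c-3p.

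Of the miR-449 cluster, miR-449a was present in the table only under the name of its 3p arm, and by mean RPM it was the second most abundant family member in lung. In high-altitude goat 1 it stood just below miR-34b-3p, at 300.3 against 301.6 RPM. The name miR-449a-3p was not checked here against a mature sequence. Every value given for miR-449a-3p therefore belongs to the row of that name, and which arm was read was not tested. It stood at 300.3, 1796 and 326.0 RPM at high altitude and at 851.9, 663.9 and 908.7 RPM at low altitude. High-altitude goat 2 was above and the other 2 high-altitude goats were below all 3 low-altitude goats. The same order held for miR-449b-5p, at 17.5, 106.4 and 17.9 RPM against 59.8, 60.2 and 84.4 RPM, and for miR-449c-5p, at 35.95, 268.0 and 22.1 RPM against 78.8, 72.3 and 69.8 RPM. miR-34c-5p and miR-449a-3p did not keep a fixed ratio between lungs. The count of miR-449a-3p was 0.0640, 0.176 and 0.120 of that of miR-34c-5p in high-altitude goats 1, 2 and 3. It was 0.109, 0.347 and 0.144 of it in low-altitude goats 1, 2 and 3.

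Cell type lists were summed in the same lung libraries. The epithelial list, led by miR-141-3p, summed to 7316, 7949 and 9921 RPM at high altitude and 8047, 13535 and 9010 RPM at low altitude, with miR-375-3p at 0 in all 6 libraries and miR-200b-3p at 0 in high-altitude goats 1 and 3. Its highest library was low-altitude goat 2, the lung lowest in miR-34c-5p. The endothelial list, miR-126-3p and miR-126-5p with miR-126-3p the more abundant, summed to 13483, 38674 and 7543 RPM at high altitude and 16815, 26480 and 24913 RPM at low altitude, with none of its members at 0. Its highest library was high-altitude goat 2, as for miR-34c-5p and miR-449a-3p. The smooth muscle list, miR-143-3p and miR-145-5p with miR-143-3p the more abundant and none at 0, summed to 149442, 154167 and 253381 RPM at high altitude and 290095, 301529 and 264381 RPM at low altitude. All 3 high-altitude lungs lay below all 3 low-altitude lungs, the order that miR-34a-5p also has. The liver list, which is miR-122-5p, lay above, at 72.2, 19.6 and 129.3 RPM against 12.7, 10.05 and 5.69 RPM, and the other 7 of 9 lists overlapped. Over all single miRNAs with a lung mean of at least 1 RPM, 13.7% were lower and 5.03% higher at high altitude without overlap. The part of these cell types in the spread between lungs, and in the lung values of miR-34a-5p, was not tested.

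chi-miR-34a-5p, here miR-34a-5p, had a wider distribution. In lung it stood at 63.3, 135.2 and 54.7 RPM at high altitude and 171.9, 168.0 and 225.4 RPM at low altitude, and the altitudes did not overlap. In liver it stood at 70.7, 24.6 and 62.4 RPM at high altitude and 30.3, 118.3 and 146.4 RPM at low altitude, which overlapped. Liver reached into the lung range, and the order of tissue means was lung at 136.4 ± 66.6 RPM (SD, n = 6), liver at 75.5 ± 48.4 RPM, spleen at 33.9 ± 15.7 RPM, heart at 18.1 ± 8.36 RPM, kidney at 17.2 ± 14.2 RPM and muscle at 2.50 ± 1.04 RPM. Neighbouring tissues in this order overlapped, except that every kidney library lay above every muscle library.

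For miR-34c-5p the order was lung at 5608 ± 3134 RPM (SD, n = 6), liver at 22.4 ± 13.9 RPM, muscle at 19.7 ± 12.7 RPM, spleen at 19.1 ± 13.5 RPM, kidney at 13.3 ± 11.5 RPM and heart at 5.52 RPM, with values from 1.02 to 15.01 RPM. Every lung library lay above every library of the other 5 tissues, the highest of which was 44.5 RPM, and the neighbours among those 5 tissues overlapped. The order outside lung turned with the scaling: with TMM-scaled library sizes the mean was 33.2 in muscle, 17.5 in liver and 15.4 in kidney. Lung held 98.6% of the summed tissue means of miR-34c-5p and 48.1% of those of miR-34a-5p.

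**Figure D1:**
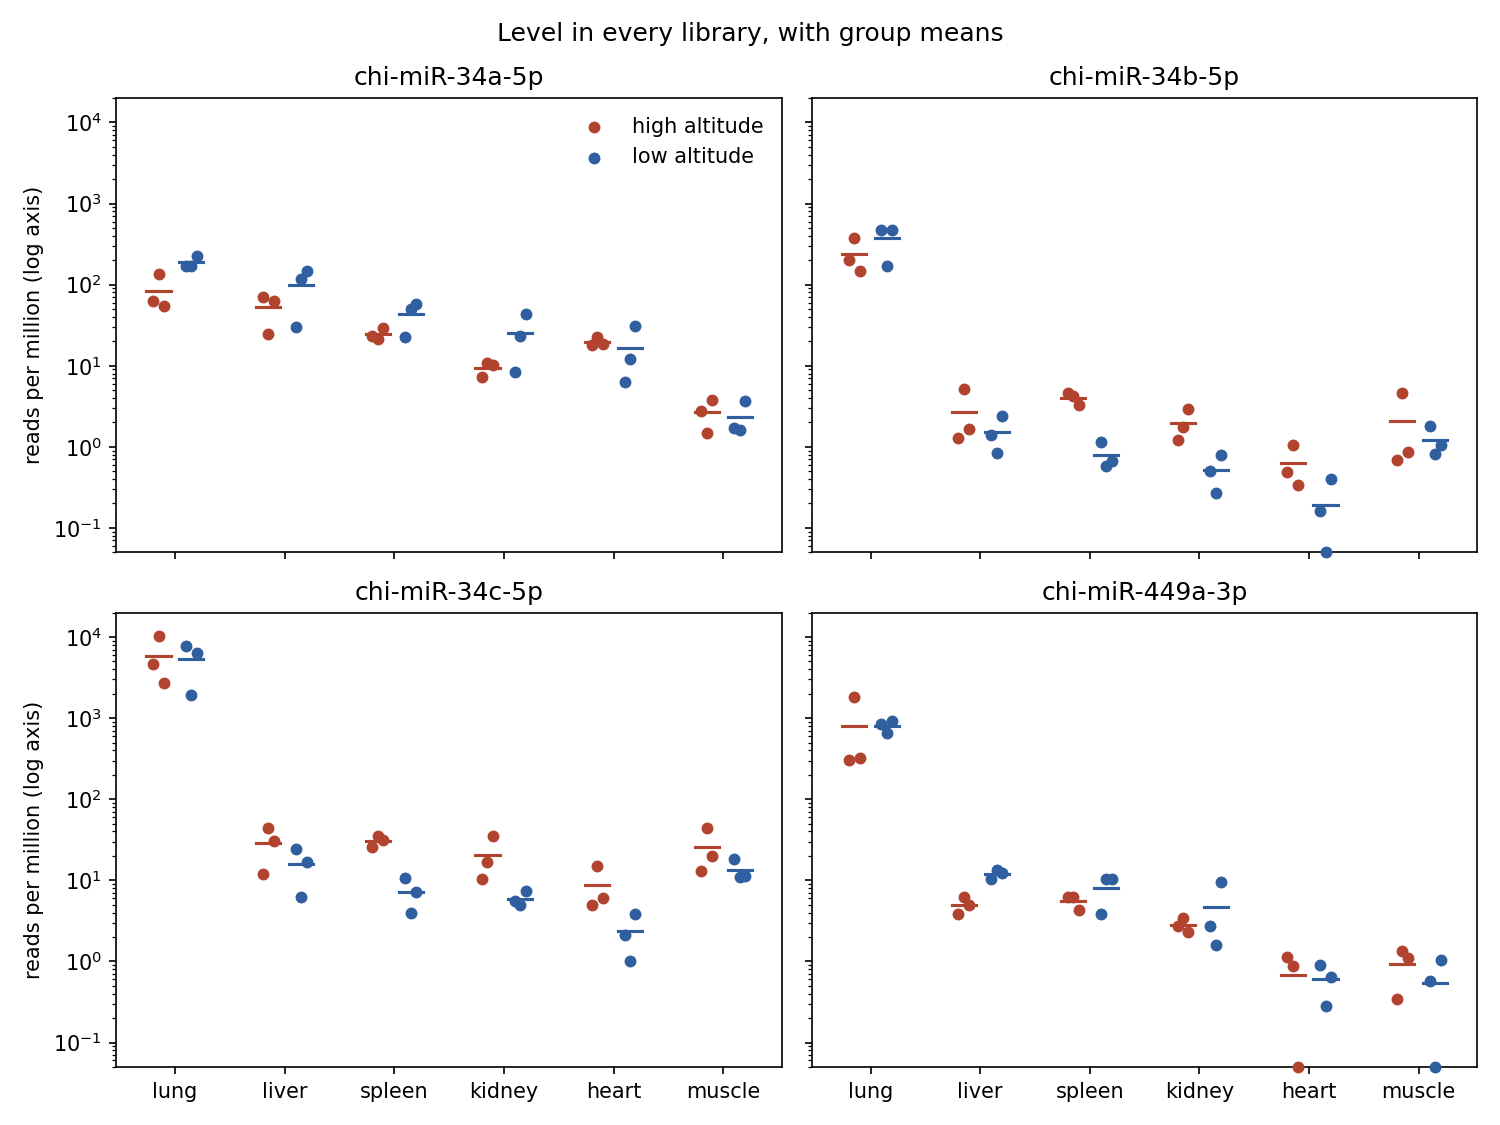
Level in RPM (log axis) of miR-34a-5p, miR-34b-5p, miR-34c-5p and miR-449a-3p in each of the 36 libraries by tissue, with high-altitude goats in red and low-altitude goats in blue; short lines are means of 3 goats, and a value of 0 is drawn on the lower edge. miR-34a-5p spans 1.49 to 225.4 RPM without a gap between lung and liver, whereas every lung value of the other 3 miRNAs lies above all their values elsewhere.

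The remaining abundant members shared with miR-34c-5p the step between lung and the other tissues. Outside lung, mean RPM of miR-34c-5p and of miR-34b-5p was lowest in heart, at 5.52 and 0.407 RPM. Kidney came next for both, at 13.3 and 1.25 RPM. For miR-449a-3p, heart was lowest at 0.641 RPM and muscle came next at 0.733 RPM. Its mean in kidney was 3.73 RPM, above muscle without overlap. Outside lung, miR-34b-5p stayed at or below 5.11 RPM, miR-34b-3p at or below 3.14 RPM and miR-34c-3p at or below 0.549 RPM. miR-449a-3p reached 13.4 RPM in liver, miR-449b-5p 1.96 RPM in spleen and miR-449c-5p 2.50 RPM in liver. Neither miR-449b-5p nor miR-449c-5p had a count in any heart library. For these 6 miRNAs too, the lowest lung library lay above the highest library of any other tissue.

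The contrast of lung with the mean of the other 5 tissues was tested with edgeR's quasi-likelihood test over all 1391 miRNAs, where a call needed a Benjamini-Hochberg adjusted p below 0.05 together with a change of 1.5 or more on the log2 scale. Of the 11 family members, 9 were called higher in lung, against 8.91% of all miRNAs. The 9 include miR-34c-5p, the scarce miR-449b-3p, both arms of the same hairpins and miRNAs of a shared transcript. They are not independent, so the count is a description. The lung level of miR-34c-5p was known when the family was chosen, so its log2 fold change of 8.18 ± 0.30 (SE) is a description. miR-34a-5p rose by 2.27 ± 0.28 on the log2 scale (adjusted p = 2.51e-07), miR-34b-5p by 7.43 ± 0.33 (adjusted p = 4.67e-17) and miR-449a-3p by 7.69 ± 0.39 (adjusted p = 9.79e-16). miR-34b-3p rose by 8.60 ± 0.36. With the goat as a replicate block, since tissues of a goat are paired, the values were 8.18 for miR-34c-5p and 2.38 for miR-34a-5p. The contrast averages log2 values of 10 groups, and 2 of them had no count of miR-34c-3p and 4 had none of miR-449b-5p or miR-449c-5p. For those 3 called miRNAs the ratio of the mean RPM in lung to that over the other tissues is given instead, 490.8 for miR-34c-3p, 260.4 for miR-449b-5p and 380.6 for miR-449c-5p. The value for miR-449c-5p was 232.9 without the lung library of high-altitude goat 2 and 570.4 without the liver library of low-altitude goat 3. The same ratio was 350.5 for miR-34c-5p and 4.64 for miR-34a-5p.

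The other 3 members were scarce. miR-34a-3p, the minor arm of miR-34a, reached 5.60 RPM in a liver library and 2.99 RPM in lung. Its log2 fold change for lung was 1.72 ± 0.64 with an adjusted p of 0.0697, and it was not called. With the goat as a replicate block it was called, at 1.79 with an adjusted p of 0.0417, and it was called in 0 of 6 fits that left out a goat and in 4 other settings. miR-449b-3p had 0 to 4 counts in lung and 0 in the 30 other libraries, and was called on those counts with an adjusted p of 0.0127. With the goat as a replicate block its adjusted p was 0.189, and it was not called in 5 of 6 fits that left out a goat, where the adjusted p ran from 0.0331 to 0.121. The conserved-type miR-34a-5p entry had 4 counts in the lung library of low-altitude goat 2 and 0 in every other library.

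miR-34a was then set against miR-34b/c within each library, which removes the library total from the comparison. Such ratios compare read counts, and how efficiently each small RNA was captured was not measured. In lung, miR-34c-5p had 74.1, 75.3 and 49.9 times the counts of miR-34a-5p in the high-altitude goats, against 45.6, 11.4 and 27.9 times in the low-altitude goats. Every high-altitude lung lay above every low-altitude lung. The mean log2 ratio, with 1 count added to each miRNA, was 6.03 ± 0.34 (SD, n = 3) at high and 4.61 ± 1.02 at low altitude, a difference of 1.42. A two-sided exact permutation test gave p = 0.1, the smallest p this test can give with 3 goats against 3, so it cannot pass 0.05. Without low-altitude goat 2 the difference was 0.871. For miR-34b-5p the counts were 3.17, 2.78 and 2.65 times those of miR-34a-5p at high altitude, against 2.74, 1.02 and 2.09 times at low altitude. Here the altitudes overlapped, and the mean log2 ratios differed by 0.667.

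Outside lung the balance between these miRNAs changed with the tissue. The mean log2 ratio of miR-34c-5p to miR-34a-5p was 2.85 ± 1.12 (SD, n = 6) in muscle, where miR-34a-5p was lowest, -0.40 ± 1.70 in kidney, -1.12 ± 1.81 in spleen, -1.73 ± 1.90 in liver and -1.999 ± 1.04 in heart. In spleen the ratio of counts was 1.12, 1.65 and 1.09 in the high-altitude goats, against 0.466, 0.0785 and 0.126 in the low-altitude goats. In kidney it was 1.44, 1.56 and 3.40 against 0.671, 0.216 and 0.167. miR-34c-5p thus outnumbered miR-34a-5p in the 3 high-altitude goats and was outnumbered in the 3 low-altitude goats in both tissues. In liver, heart and muscle the altitudes overlapped. These differences outside lung were not tested.

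**Figure D2:**
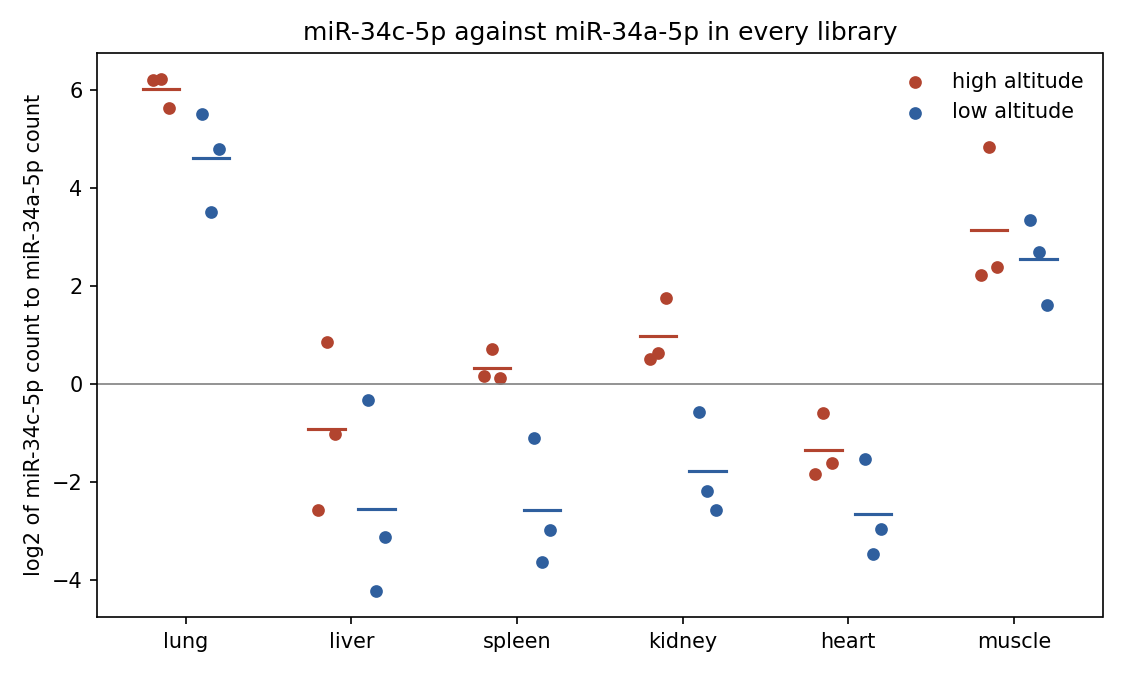
Log2 of the ratio of miR-34c-5p to miR-34a-5p counts in each library by tissue, with high-altitude goats in red, low-altitude goats in blue and means of 3 goats as short lines; the grey line at 0 marks equal counts. Lung has the highest mean, with values from 3.51 to 6.23 that overlap those of muscle, at 1.62 to 4.83, and the altitudes do not overlap in lung, spleen and kidney.

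The ratio of miR-34b-5p to miR-34c-5p, which share a transcript, varied less. Its mean log2 value was -4.14 ± 0.48 (SD, n = 6) in lung, -3.67 ± 0.49 in muscle, -3.42 ± 0.34 in heart, -3.30 ± 0.32 in kidney, -3.30 ± 0.63 in liver and -2.93 ± 0.35 in spleen. In lung this ratio was lower at high altitude, at -4.51 ± 0.26 (SD, n = 3), than at low altitude, at -3.76 ± 0.29, without overlap. In the other 5 tissues the altitudes overlapped.

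The altitude comparison asked, in each tissue, whether family members differed between the 3 high-altitude and 3 low-altitude goats. No family member was called by edgeR's quasi-likelihood test in any of the 6 tissues, where the calls over all miRNAs came to 0% in lung, 0% in liver, 0.144% in spleen, 0% in kidney, 0% in heart and 0.0719% in muscle. With no minimum fold change the count was still 0 of 66 pairs of member and tissue, against 0.0359% of all pairs. At an unadjusted p under 0.05 there were 5 of 66, against 5.32% of all pairs. edgeR's exact test called 0, against 0.335%. DESeq2 called 2 of the 44 pairs to which it gave an adjusted p, against 4.89%, and both were in spleen.

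In lung, the values already given correspond to a log2 fold change, high over low altitude, of -1.08 ± 0.34 (SE) for miR-34a-5p, with an unadjusted p of 0.0173 and an adjusted p of 0.832. The value was 0.12 ± 0.57 for miR-34c-5p and -0.56 ± 0.47 for miR-34b-5p (adjusted p = 0.903). Leaving out high-altitude goat 2 or low-altitude goat 2 turned the sign for miR-34c-5p, to -0.16 and -0.28. Of the 9 members with a lung mean of at least 1 RPM, 2 had groups that did not overlap, miR-34a-5p and miR-34a-3p, both lower at high altitude, and 0 were higher without overlap. Over all miRNAs at that level the shares were 13.7% lower and 5.03% higher. miR-34a-3p stood at 0.829, 1.06 and 1.96 RPM at high altitude and 2.99, 2.49 and 2.85 RPM at low altitude, on 8 to 29 counts. The miR-449 members had lung values of -0.09 ± 0.57 for miR-449a-3p, -0.62 ± 0.60 for miR-449b-5p and 0.37 ± 0.73 for miR-449c-5p, each smaller than or close to its SE. Without 1 goat, the value ran from -0.88 to 0.31 for miR-449a-3p, from -1.46 to -0.22 for miR-449b-5p and from -0.95 to 0.85 for miR-449c-5p, so the sign turned for miR-449a-3p and miR-449c-5p. With a block of same-numbered high- and low-altitude goats, which are different animals, it was -0.172 for miR-449c-5p.

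In spleen, miR-34c-5p stood at 25.9, 35.5 and 31.4 RPM in the high-altitude goats and at 10.6, 3.91 and 7.23 RPM in the low-altitude goats. All 3 high-altitude goats were above all 3 low-altitude goats, on 34 to 346 counts. The log2 fold change was 2.06 ± 0.52 (SE), with an unadjusted p of 0.00585 and an adjusted p of 0.625. miR-34b-5p showed the same order, at 4.65, 4.24 and 3.27 RPM against 1.14, 0.575 and 0.667 RPM, with a log2 fold change of 2.31 ± 0.76 (adjusted p = 0.729). DESeq2 gave adjusted p-values of 1.70e-05 for miR-34c-5p and 0.00310 for miR-34b-5p, so the call depends on the tool. miR-34a-5p stood at 23.1, 21.5 and 28.8 RPM against 22.7, 49.8 and 57.5 RPM, with overlap and a log2 fold change of -0.91 ± 0.53 (adjusted p = 0.729). Of 4 members above 1 RPM in spleen, 2 were higher at high altitude without overlap, against 9.18% of all miRNAs, and 0 were lower, against 12.7%. miR-34b-5p reached 1 RPM only through the high-altitude goats, with means of 4.05 and 0.795 RPM, so its place in that count follows from its difference. With 1 RPM required at each altitude, chosen after seeing the data, 1 of 3 members was higher, against 9.24%.

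In kidney, miR-34c-5p stood at 10.4, 16.7 and 35.1 RPM in the high-altitude goats and at 5.57, 4.97 and 7.30 RPM in the low-altitude goats, without overlap. Its log2 fold change was 1.89 ± 0.71 (SE) with an adjusted p of 0.959, and 1.003 without high-altitude goat 3. miR-34b-5p stood at 1.22, 1.76 and 2.96 RPM against 0.506, 0.266 and 0.789 RPM, also without overlap, on 3 to 33 counts, with a log2 fold change of 2.01 ± 0.89 (adjusted p = 0.959). miR-34a-5p stood at 7.20, 10.7 and 10.3 RPM against 8.30, 23.0 and 43.8 RPM, with overlap and a log2 fold change of -1.09 ± 0.49 (adjusted p = 0.959). The counts without overlap were 2 of 4 members higher at high altitude, against 4.07% of all miRNAs, and 0 of 4 lower, against 8.35%. Here too miR-34b-5p reached 1 RPM only through the high-altitude goats, with means of 1.98 and 0.521 RPM, and with 1 RPM required at each altitude 1 of 3 members was higher, against 4.18%.

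In heart, miR-34c-5p stood at 5.01, 15.01 and 6.03 RPM in the high-altitude goats and at 2.13, 1.02 and 3.89 RPM in the low-altitude goats. The groups did not overlap, and the log2 fold change was 1.77 ± 0.71 (SE) with an adjusted p of 0.748, or 0.96 without high-altitude goat 2. miR-34a-5p stood at 18.2, 22.7 and 18.6 RPM against 6.31, 12.3 and 30.5 RPM, with the high-altitude goats inside the range of the low-altitude goats. Of 2 members above 1 RPM, 1 was higher without overlap, against 19.9% of all miRNAs, and 0 were lower, against 9.95%.

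In muscle, miR-34c-5p stood at 13.2, 44.5 and 20.0 RPM against 18.2, 10.9 and 11.3 RPM, and in liver at 11.8, 44.5 and 30.8 RPM against 24.2, 6.19 and 16.8 RPM. Both overlapped, with log2 fold changes of 0.93 ± 0.51 (SE) in muscle and 0.88 ± 0.75 in liver. Of 4 members above 1 RPM in muscle, 0 were higher without overlap, against 8.90% of all miRNAs, and 0 were lower, against 14.1%. Of the members above 1 RPM in liver, the 1 without overlap was miR-449a-3p, at 3.81, 6.19 and 4.91 RPM in the high-altitude goats and 10.4, 13.4 and 12.3 RPM in the low-altitude goats, with a log2 fold change of -1.16 ± 0.56 (adjusted p = 0.726). It was 1 of 5 members lower without overlap, against 14.0% of all miRNAs, and 0 of 5 were higher, against 4.67%. Members below 1 RPM were left out of these counts in every tissue, and no share over all miRNAs was computed at that level. Some also had altitudes without overlap, on counts of 0 to 23. miR-34b-3p was higher at high altitude in liver, spleen and heart, miR-34c-3p in spleen and heart, and miR-449b-5p was lower in spleen. For miR-34c-3p these were 0 to 2 counts in both tissues, within the 3 counts that a 0 allows. For miR-34b-3p in liver they were 1 to 5 counts. These orders are therefore no measure of a difference.

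**Figure D3:**
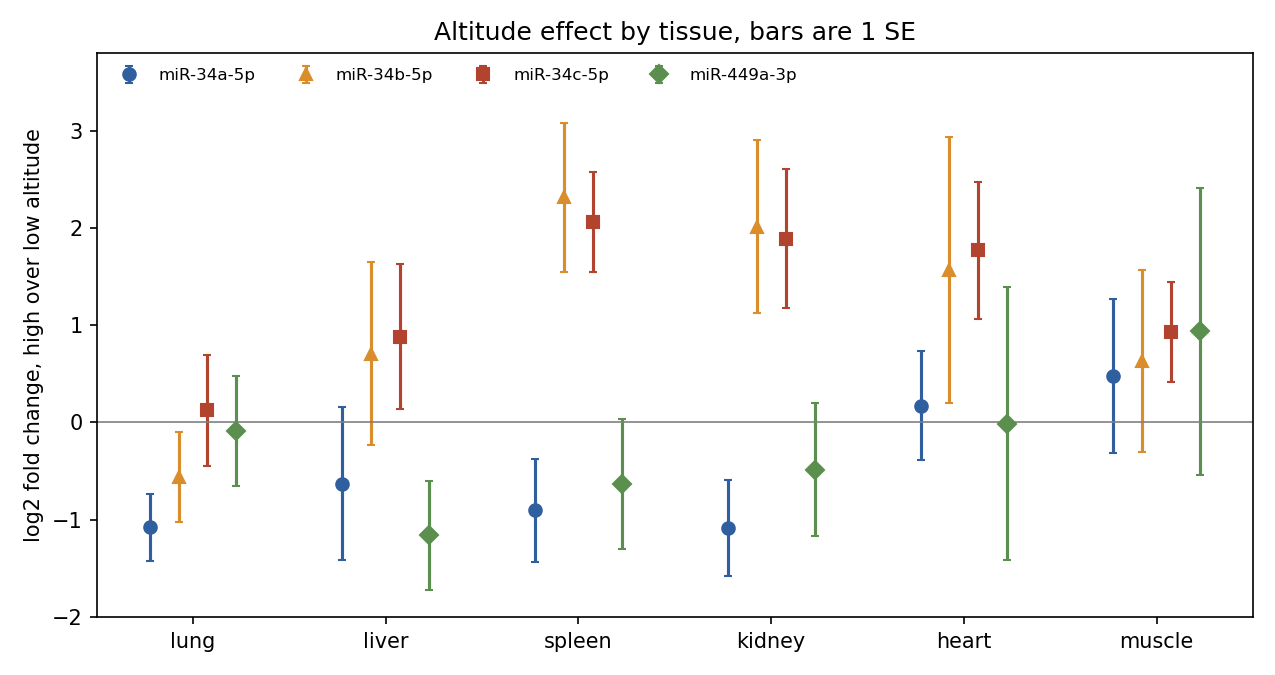
Log2 fold change of high over low altitude in each tissue for miR-34a-5p, miR-34b-5p, miR-34c-5p and miR-449a-3p, from edgeR with 3 goats a group; bars are 1 SE and the grey line marks no change. The largest values are those of miR-34b-5p and miR-34c-5p in spleen, at 2.31 and 2.06, and none of those drawn has an adjusted p under 0.05.

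Marker lists were read beside the separations of miR-34c-5p outside lung, and of 9 lists 1 in spleen, 1 in kidney and 4 in heart had altitudes that did not overlap. Over all single miRNAs of at least 1 RPM, 9.18% were higher and 12.7% lower at high altitude without overlap in spleen. The shares were 4.07% and 8.35% in kidney and 19.9% and 9.95% in heart. The epithelial list, with miR-375-3p and 1 to 3 others of 11 at 0 and led by miR-203-3p or miR-141-3p, summed to 115.4, 133.8 and 84.4 RPM in high-altitude spleens and 79.9, 119.4 and 57.1 RPM in low-altitude spleens, which overlapped. In kidney it summed to 1947, 5708 and 1616 RPM at high altitude and 2652, 2795 and 8512 RPM at low altitude, also with overlap, led by miR-141-3p, miR-200a-3p or miR-200b-3p, with miR-375-3p at 0 throughout and miR-200b-3p at 0 in 4 of 6. In heart it summed to 61.7, 16.8 and 68.2 RPM at high altitude and 17.4, 21.1 and 13.6 RPM at low altitude, with overlap, 2 to 4 members at 0 and no steady leading member. The leukocyte list, led by miR-142-5p, did separate the altitudes in heart, at 3509, 2002 and 2818 RPM against 1924, 1885 and 1531 RPM. No member of it was at 0 in heart, but its members went both ways. Their log2 fold changes, high over low altitude, were 0.58 for miR-142-5p, 1.44 for miR-223-3p and 0.71 for miR-155-5p. They were -1.07 for miR-142-3p and -0.24 for miR-150-5p. The leukocyte list did not separate the altitudes in spleen, where it summed to 17602, 67519 and 62123 RPM at high altitude and 36570, 35256 and 40326 RPM at low altitude, with miR-223-3p at 0 in low-altitude goats 2 and 3. The smooth muscle list, led by miR-143-3p with none at 0, was lower at high altitude in spleen, at 356084, 400364 and 367739 RPM against 409393, 563335 and 447855 RPM. It was higher at high altitude in heart, at 180756, 115865 and 189297 RPM against 68517, 75540 and 58915 RPM. Its members went opposite ways there, with log2 fold changes of 1.09 for miR-143-3p and -1.58 for miR-145-5p. The striated muscle list, led by miR-133a-3p with 0 to 2 of 6 members at 0, was higher at high altitude in kidney, at 837.5, 726.3 and 1226 RPM against 104.6, 333.8 and 312.7 RPM. The log2 fold changes there were 2.37 for miR-133a-3p, 1.22 for miR-206-3p, 1.61 for miR-208b-3p and 3.74 for miR-499-5p. They were -0.49 for miR-1-3p and -3.04 for miR-208a-3p. In heart the kidney list, led by miR-204-5p, was higher at 38.1, 31.6 and 66.5 RPM against 14.0, 16.4 and 20.98 RPM, and the p53 list, led by miR-22-3p, at 32099, 37472 and 33025 RPM against 22484, 19152 and 30691 RPM. Members of the p53 list went both ways there. The log2 fold changes were 0.86 for miR-22-3p, 0.83 for miR-215-5p, 0.53 for miR-194-5p, 0.12 for miR-15a-5p and 0.05 for miR-107-3p. They were -1.11 for miR-16a-5p and -1.66 for miR-16b-5p. In liver, where miR-449a-3p separated, the red blood cell list was lower at high altitude, at 343.0, 6381 and 4283 RPM against 9100, 9952 and 8651 RPM. It was led by miR-486-5p, except in high-altitude goat 1, where miR-486-5p stood at 2.03 RPM and miR-144-3p led, and 2 of 3 members were at 0 in high-altitude goat 3, so this order rests in part on rows with zeros beside high values. The part of these cell types in the family's values was not tested.

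The 6 tissues come from the same goats and are not independent. Among the low-altitude goats, goat 1 had the lowest miR-34a-5p value in liver, spleen, kidney and heart, at 30.3, 22.7, 8.30 and 6.31 RPM. For miR-34c-5p, low-altitude goat 2 was lowest of all goats in each of the 6 tissues. Its values were 1914 RPM in lung, 6.19 in liver, 3.91 in spleen, 4.97 in kidney, 1.02 in heart and 10.9 in muscle. High-altitude goat 2 was highest in lung, liver, spleen, heart and muscle, at 10181, 44.5, 35.5, 15.01 and 44.5 RPM. In kidney high-altitude goat 3 was highest, at 35.1 RPM. Whether altitude effects differed between tissues was tested as an interaction with 5 degrees of freedom in edgeR. It called 0 of 11 members, against 0.216% of all miRNAs, and 0 had an unadjusted p under 0.05, against 6.69%. The unadjusted p was 0.340 for miR-34c-5p and 0.343 for miR-34a-5p. That fit leaves out that tissues of a goat are paired. With the goat as a replicate block, chosen after seeing the data, the interaction again called 0 of 11 members, against 0.144% of all miRNAs, and 1 of 11 had an unadjusted p under 0.05, against 6.61%. It was miR-34b-5p, with an unadjusted p of 0.0488 and an adjusted p of 0.752, and the unadjusted p was 0.180 for miR-34c-5p and 0.158 for miR-34a-5p.

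The miRNAs whose profile was most like miR-34c-5p were found by Pearson correlation of log2(RPM + 1) over 36 libraries among 307 others with a mean of at least 10 RPM. They were miR-34b-5p (r = 0.989), miR-34b-3p (r = 0.960), miR-449c-5p (r = 0.924), miR-449a-3p (r = 0.914) and the conserved-type miR-138-5p (r = 0.868). Thus 4 of the 5 were family members, and miR-138-5p averaged 144.2 RPM in lung and 4.15 RPM elsewhere. All 5 reached the minimum of 10 RPM only through lung. Means elsewhere were 1.57 RPM for miR-34b-5p, 0.567 for miR-34b-3p, 0.240 for miR-449c-5p and 4.08 for miR-449a-3p. Their likeness to miR-34c-5p over all libraries follows in part from that minimum and is a description. The 36 values share tissues and goats, and much of the likeness is the step between lung and the rest. Over the 30 libraries outside lung, r was 0.902 for miR-34b-5p, 0.560 for miR-34b-3p, 0.256 for miR-449a-3p, 0.00255 for miR-449c-5p and 0.0178 for miR-138-5p. miR-449c-5p had a count in only 8 of those 30 libraries.

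For miR-34a-5p the nearest 5 held no family member. They were miR-146b-5p (r = 0.846), let-7i-5p (r = 0.827), miR-147-3p (r = 0.791), miR-146a-3p (r = 0.782) and miR-3431-5p (r = 0.778). miR-146 miRNAs are known regulators of innate immune signalling, and miR-146b-5p averaged 2808 RPM in lung and 305.5 RPM elsewhere. Over the 30 libraries outside lung, r was 0.805 for miR-146b-5p and 0.735 for let-7i-5p. miR-34c-5p came 82nd of 307 in likeness to miR-34a-5p, with r of 0.526 and a rank correlation of 0.341.

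Other miRNAs known to respond to p53 were listed for comparison with miR-34a, and 7 of 9 were found. In lung against the other tissues, 0 of these rose, against 8.91% of all miRNAs, 2 fell, against 3.52%, and 5 were not called, with a median log2 fold change of -0.06. Of the 5, miR-107-3p, at 1.98 ± 1.31 (SE), ran from 0 to 2154 RPM in lung, and miR-16b-5p, at 0.50 ± 0.83, from 0 to 2900 RPM in spleen. Without these 2 rows 0 of 5 rose and 2 fell, with a median of -0.11. miR-107 was listed under its 5p name in place of 3p in 11 of 36 libraries, 1 of them from lung, 4 from liver, 5 from kidney and 1 from muscle, and with its arms summed the value was 0.26 ± 0.21 (adjusted p = 0.701). The liver-rich miR-194-5p fell by 2.64 on the log2 scale and miR-22-3p fell by 1.803. Of the other lists, to be read against the same shares of 8.91% higher and 3.52% lower, 0 of 5 leukocyte and 0 of 2 smooth muscle members were called for lung, and the endothelial miR-126-5p fell by 1.93. Higher in lung by adjusted p but short of the minimum fold change were endothelial miR-126-3p, at 1.14 ± 0.18 (SE, adjusted p = 2.51e-05), leukocyte miR-155-5p, at 0.87 ± 0.25 (adjusted p = 0.0147), and smooth muscle miR-145-5p, at 0.88 ± 0.30 (adjusted p = 0.0448). In the striated muscle list 3 of 6 members fell, with log2 fold changes of -4.52 for miR-133a-3p, -5.64 for miR-208b-3p and -3.86 for miR-499-5p, in the kidney list 3 of 3 and in the liver list 1 of 1. Of 3 red blood cell members found among 4 listed, 2 were called lower, miR-144-3p and miR-144-5p, which were listed at 0 in every lung library, and miR-486-5p was not called, at -0.10 ± 1.23 (SE). As in the p53 rows just named, zeros stood beside high values in the same tissue: miR-144-3p ran from 0 to 1717 RPM in spleen, leukocyte miR-223-3p from 0 to 864.4 RPM in spleen, miR-486-5p from 0 to 18758 RPM in lung, and miR-200b-3p from 0 to 2143 RPM in lung. Being called or not is therefore no measure of a change for any of these rows. None of the list members was called for altitude by edgeR in any of the 6 tissues, where 3 calls were made over all miRNAs.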

How the data were processed

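Small RNA libraries of 36 samples were sequenced by the authors on Illumina instruments, with base calling in CASAVA 1.8 and read mapping with Bowtie per the submitters' processing notes. The deposited values are counts per mature miRNA, which the authors obtained with miRDeep2. Arm names are those of the table and were not checked against sequences. From these counts, RPM over all miRNA counts of a library, ratios between miRNAs and tests were computed with Python 3.11.15, R 4.3.3, edgeR 4.0.16 (TMM, quasi-likelihood F test, Benjamini-Hochberg adjustment over 1391 miRNAs) and DESeq2 1.42.0. The procedure was tested on simulated data. Those counts had a single fixed spread, no goat effects and changes only in miRNAs of at least 10 RPM. The test does not show how often scarcer rows, or rows with zeros beside high values, would be called. The members, lists and tests were chosen with earlier results of these data known. Named were all family members, with values in every library where the highest tissue mean reached 10 RPM, the 5 miRNAs most like miR-34a-5p and miR-34c-5p, and up to 4 called members of the epithelial, leukocyte, endothelial, smooth muscle, red blood cell, striated muscle, liver, kidney and p53 lists. Markers of the label check and uncalled list members were named after their values were seen. Tissues of a goat share its number and are paired. The lung contrast was fitted without that pairing and again with the goat as a replicate block; deviations within a goat correlated weakly (mean r -0.01 to 0.15). Numbers of the high and low populations belong to different goats. Of 18 same-numbered pairs 7 had r over 0.1, and heart was the tissue where all 3 did (r 0.51, 0.35 and 0.45). In heart, a block of these same-numbered goats changed no call.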

Additional observations from a re-analysis of the deposited data

How the results depend on the processing

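The 9 lung calls numbered 8 or 9 when each goat was left out and 10 with RLE factors or library size alone. miR-34a-3p passed the threshold for lung under RLE factors (1.88), library size alone (2.07), DESeq2 (1.92), a filter on low counts (1.94) and goat as a replicate block (1.79), and in 0 of 6 fits without a goat. Scaling moved the median lung contrast over 537 miRNAs from -0.27 with TMM to -0.07 with RLE and 0.28 with library size alone, and no family direction changed. Library size alone also moved the altitude medians, from -0.0326 to -0.136 in liver and from -0.0569 to -0.118 in kidney. TMM scaling moved the muscle means to 4.45 for miR-34a-5p and 33.2 for miR-34c-5p, in TMM-scaled RPM. DESeq2 called 2 members in spleen. A block of same-numbered high- and low-altitude goats was also tried, though these are different animals and not true pairs. With it the lung altitude value was -1.09 for miR-34a-5p, -0.0175 for miR-34c-3p and -0.172 for miR-449c-5p. The sign turned for miR-34c-3p and miR-449c-5p, and no family member was called for altitude. For miR-34b-3p in lung the sign turned with RLE (0.0603), library size (0.0581), DESeq2 (0.0604) and the fit over 36 libraries (0.0647). For miR-34a-5p in heart it turned in the fit over 36 libraries (-0.0940). Leaving out each goat gave, in lung, -1.22 to -0.89 for miR-34a-5p, -0.38 to 0.57 for miR-34b-3p, -0.28 to 0.57 for miR-34c-5p, -0.16 to 0.76 for miR-34c-3p, -0.88 to 0.31 for miR-449a-3p and -0.95 to 0.85 for miR-449c-5p, and -0.26 to 0.81 for miR-34a-5p in heart. Values that kept their sign but moved were, in lung, miR-34b-5p from -0.91 to -0.29 and miR-449b-5p from -1.46 to -0.22, in liver, miR-34a-5p from -0.98 to -0.14 and miR-34c-5p from 0.47 to 1.502, in spleen, miR-34a-5p from -1.24 to -0.60, in kidney, miR-34a-5p from -1.33 to -0.78, miR-34b-5p from 1.38 to 2.49 and miR-34c-5p from 1.003 to 2.34, in heart, miR-34c-5p from 0.96 to 2.12, and in muscle, miR-34a-5p from 0.11 to 0.87 and miR-34c-5p from 0.61 to 1.17. The interaction called 0 members with and without goat as a replicate block. The altitude values whose sign turned lie within 1 SE of 0, and the cause was not tested. The difference in the lung ratio of miR-34c-5p to miR-34a-5p ran from 0.87 to 1.87 when each goat was left out. By Spearman correlation 3 of the 5 miRNAs nearest to miR-34a-5p and 2 of those nearest to miR-34c-5p were shared, and with a minimum of 1 RPM 3 for miR-34c-5p. Outside lung, values of miR-34b and miR-449 rest on few counts.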

Other observations

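Outside lung, miR-449a-3p and miR-34c-5p did not keep a common ratio between altitudes. In spleen the count of miR-449a-3p was 0.238, 0.173 and 0.136 of that of miR-34c-5p in high-altitude goats 1, 2 and 3 and 0.360, 2.62 and 1.43 of it in low-altitude goats 1, 2 and 3. In liver the ratio was 0.323, 0.139 and 0.160 in the high-altitude goats, against 0.429, 2.16 and 0.731 in the low-altitude goats, and in kidney it was 0.261, 0.205 and 0.0665 against 0.491, 0.321 and 1.31. In these 3 tissues every high-altitude goat lay below every low-altitude goat, whereas in lung, heart and muscle the altitudes overlapped. The differences were not tested.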
